A study of Homo sapiens with 28 samples.

Results

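The 7 genes described here, MT-ND1, MT-ND2, MT-ND3, MT-ND5, MT-ND6, MT-CYB and MT-CO2, are encoded by the mitochondrial genome and make core subunits of the respiratory chain. They are 7 of the 13 mitochondrial mRNAs and 7 of the 19662 gene symbols in each expression table. They were chosen by a property of their measured values, that none of them is listed at an exact 0 in any LNCaP library. The rule named no group, but every exact 0 that left a gene out lay in a normoxic library. The choice is therefore not independent of the oxygen groups. The other 6 mitochondrial mRNAs (MT-ND4, MT-ND4L, MT-CO1, MT-CO3, MT-ATP6 and MT-ATP8) lie outside the rule because they are listed at exactly 0 in the normoxic LNCaP libraries, except MT-CO1, which has 17679 RPKM in 1 of the 4. In the hypoxic LNCaP libraries those 6 genes have between 5980 and 121516 RPKM, so the exact 0 values cannot be read as low levels.

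The mitochondrial genome is a small circle that is transcribed from both strands into long precursor RNAs. The precursors are cut, mostly at the tRNAs that lie between the mRNAs, and most mRNAs then receive a short poly(A) tail, which for several of them completes the stop codon. The products are the subunits around which the complexes of the inner membrane are built: MT-ND1 to MT-ND6 in complex I (NADH dehydrogenase), MT-CYB in complex III (cytochrome b) and MT-CO2 in complex IV (cytochrome c oxidase), where oxygen is reduced.

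RNA-Seq of 2 human prostate cancer cell lines asked how ONECUT2, a transcription factor, and low oxygen act on gene expression. PC3, an androgen receptor-negative line, was treated with a control siRNA (siCtrl) or with siRNAs against ONECUT2 (siOC2), siRNA1 in one siOC2 library of a group and siRNA2 in the other. LNCaP, an androgen receptor-positive line, carried an empty vector or a vector for Flag-tagged ONECUT2 (Flag-OC2). The study's methods describe a Flag-ONECUT2 lentivirus driven by the CMV promoter. Both lines were kept in normoxia or in a chamber at 0.2% oxygen (hypoxia), with 2 libraries in each of the 4 groups of a line and 16 libraries in all. The labels do not say whether libraries of a group came from separate cultures, so p-values measure only the spread between these libraries. The exposure time of these libraries to low oxygen is not given in the sources used here.

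Values are RPKM, read numbers scaled to the length of the gene and to the size of the library, so levels of genes of different length can be set side by side. The PC3 and LNCaP tables were made separately and are compared only by their own values. KLK3, a defining LNCaP transcript, was at 0 in all PC3 libraries and between 1842 and 3997 RPKM in LNCaP libraries, and the PC3 marker CD44 was between 171 and 661 RPKM in PC3 and at most 0.748 RPKM in LNCaP. CA9, the classical hypoxia-induced carbonic anhydrase, reached 25.8 to 50.0 RPKM in hypoxic and at most 1.54 RPKM in normoxic PC3 libraries, and 3.05 to 5.38 against at most 0.531 RPKM in LNCaP. ONECUT2 was at 1.77 and 1.16 RPKM in siCtrl and 0.276 and 0.204 RPKM in siOC2 normoxic PC3 libraries, a called difference (log2 fold change 2.18 ± 0.66, SE; limma adjusted p = 0.329). In hypoxic PC3 cells it was at 0.648 and 0.550 against 0.125 and 0.214 RPKM, which was not called (1.39 ± 0.66, adjusted p = 0.44). In PC3 the limit of 1 RPKM for testing was reached by ONECUT2 only in the normoxic siCtrl libraries, where it was highest. The normoxic call could thus only go in this direction and is no support for the silencing. ONECUT2 has no value in the Flag-OC2 libraries, so the overexpression could not be checked in the RNA. Relative to the deepest library of the line, 3 PC3 libraries were shallow, siOC2 hypoxia siRNA1 at 0.303, siCtrl hypoxia replicate 2 at 0.334 and siCtrl normoxia replicate 1 at 0.365, and all others lay between 0.548 and 1.

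The 3′ ends of the genes are shown because they differ in whether the genome itself encodes a whole stop codon, a feature to which the values below return. In GRCh37 and its GENCODE annotation, each of the 7 genes is a single exon on chrM, which is 16569 bases long here. The last 30 bases are given 5′ to 3′ along the mRNA strand, in lower case, with the bases of the stop codon that the genome encodes in capitals.
MT-ND1 (chrM:3307-4262, plus strand, 956 bases): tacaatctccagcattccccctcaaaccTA
MT-ND2 (chrM:4470-5511, plus strand, 1042 bases): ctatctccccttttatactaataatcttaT
MT-ND3 (chrM:10059-10404, plus strand, 346 bases): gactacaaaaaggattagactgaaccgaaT
MT-CYB (chrM:14747-15887, plus strand, 1141 bases): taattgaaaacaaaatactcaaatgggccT
MT-ND5 (chrM:12337-14148, plus strand, 1812 bases): ctcatcctaaccctactcctaatcacaTAA
MT-ND6 (chrM:14149-14673, minus strand, 525 bases): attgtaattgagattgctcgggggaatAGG
MT-CO2 (chrM:7586-8269, plus strand, 684 bases): tttgaaatagggcccgtatttaccctaTAG
In MT-ND1, MT-ND2, MT-ND3 and MT-CYB only 1 or 2 bases of the stop codon are encoded and a tRNA gene follows with 0 bases between. MT-ND5, MT-ND6 and MT-CO2 end in a complete stop codon of 3 bases. MT-ND5 and MT-ND6 lie end to end on opposite strands with 0 bases between, and MT-ND6 is the 1 member read from the other strand, with an mRNA known to carry little or no poly(A).

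Some members have close copies in the nuclear genome, with which reads can be shared. Over at least 99.6% of the gene, the nearest nuclear copy of MT-ND2 was 98.4% identical (chr1:565020-566061) and that of MT-CO2 98.0% identical (chr1:568137-568818). The nearest copies of MT-ND6 and MT-ND5, both on chromosome 5, were at least 93.0% identical, and those of MT-ND3, MT-CYB and MT-ND1 were 86.4%, 86.0% and 82.1% identical. Shorter stretches gave another order. At 100 bases or more and 95% identity or more, MT-CO2 had 2 nuclear matches and MT-ND1, MT-ND2 and MT-ND6 had 1 each. MT-ND3, MT-CYB and MT-ND5 had 0. How the authors' counting divided reads between these copies, and whether it used the strand between MT-ND5 and MT-ND6, is not given in the sources used here.

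All 7 members were among the most abundant transcripts in every library. MT-CO2 held rank 1 to 3 by RPKM in LNCaP and rank 4 to 9 in PC3, and the lowest rank of any member was 41 in LNCaP (MT-CYB) and 54 in PC3 (MT-ND5). Together they accounted for about 6.42% to 7.8% of the reads in normoxic LNCaP libraries and 2.59% to 3.04% in hypoxic ones, as computed from RPKM and gene length. In PC3 the share was 1.58% to 2.19% in normoxia and 0.96% to 1.27% in hypoxia. In both lines every hypoxic library had a lower summed share than every normoxic library. In bulk RNA, fewer mitochondrial genomes or transcripts per cell and a change in the other RNAs of the cell cannot be told apart from these shares.

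In LNCaP cells with the empty vector, all 7 members fell in hypoxia at a limma adjusted p under 0.05, which 14.5% of the genes tested did in that direction. The fall was deepest for MT-ND2 and shallowest for MT-ND6. With a fold change over 2 added, 4 of the 7 were called (MT-ND1, MT-ND2, MT-ND3 and MT-CYB), against 2.35% of all genes called lower. The median log2 fold change of the members was -1.39 and that of all genes tested 0.02. Fold changes are on the log2(RPKM + 0.1) scale with their SE, from a fit of the 4 groups of the line.

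Among the complex I members, MT-ND1, a membrane-arm subunit next to the quinone site, was at 8577 and 10197 RPKM in normoxia and at 3069 and 3013 RPKM in hypoxia. Its hypoxic values were close to each other and about 3.08-fold lower by the fit (log2 fold change -1.62 ± 0.11, adjusted p = 3.03e-05). MT-ND2, one of the proton-pumping subunits of the membrane arm, was at 9881 and 11118 RPKM in normoxia and at 2906 and 2810 RPKM in hypoxia. This was the largest fall of the 7 in this arm, 3.67-fold (-1.87 ± 0.11, adjusted p = 2.31e-05). MT-ND3, a small subunit at the junction of the 2 arms of complex I, was at 10298 and 10897 RPKM and then at 3995 and 4108 RPKM. It fell 2.61-fold (-1.39 ± 0.10, adjusted p = 4.78e-05).

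MT-ND5, another proton-pumping subunit, was at 5124 and 4607 RPKM in normoxia and at 3026 and 2786 RPKM in hypoxia. The groups did not overlap, but the fall was 1.67-fold (-0.74 ± 0.11, adjusted p = 0.0013). MT-ND6 was at 13703 and 14219 RPKM in normoxia and at 8960 and 8073 RPKM in hypoxia. Its fall of 1.64-fold was the smallest (-0.71 ± 0.12, adjusted p = 0.00239). The 95% intervals of MT-ND5 (-0.98 to -0.50) and MT-ND2 (-2.12 to -1.63) did not overlap.

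Cytochrome b of complex III followed the first 3 genes. MT-CYB was at 7784 and 8113 RPKM in normoxia and at 2649 and 2752 RPKM in hypoxia, a fall of 2.94-fold (-1.56 ± 0.10, adjusted p = 2.89e-05). MT-CO2, which accepts electrons from cytochrome c in complex IV, was at 24543 and 31773 RPKM in normoxia and at 14361 and 13772 RPKM in hypoxia. It remained the most abundant member and fell 1.99-fold (-0.99 ± 0.16, adjusted p = 0.00215), just short of the fold limit of 2. By complex, the log2 fold change was -1.39 (median of the 5 complex I members, from -1.87 to -0.71), -1.56 for complex III and -0.99 for complex IV.

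In LNCaP cells with Flag-OC2, all 7 members were called lower in hypoxia, against 1.38% of all genes tested, and all 7 had an adjusted p under 0.05, as 8.76% of all genes had in that direction. The order of the members was nearly that of the empty vector cells. MT-ND2 was at 11560 and 12123 RPKM in normoxia and at 2807 and 2559 RPKM in hypoxia (-2.14 ± 0.11, adjusted p = 1.57e-05). MT-ND1 was at 10259 and 10568 RPKM in normoxia and at 2640 and 2600 RPKM in hypoxia (-1.99 ± 0.11, adjusted p = 1.61e-05). The falls of these genes were 4.42-fold and 3.97-fold. MT-CYB was at 8549 and 9409 RPKM in normoxia and at 2241 and 2430 RPKM in hypoxia (-1.94 ± 0.10, adjusted p = 1.57e-05). MT-ND3 was at 11379 and 12627 RPKM in normoxia and at 3856 and 3760 RPKM in hypoxia (-1.65 ± 0.10, adjusted p = 2.26e-05).

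The other 3 members again fell less. MT-CO2 was at 26260 and 33102 RPKM in normoxia and at 12207 and 12274 RPKM in hypoxia (-1.27 ± 0.16, adjusted p = 0.000949). MT-ND6 was at 16333 and 15073 RPKM in normoxia and at 8231 and 7249 RPKM in hypoxia (-1.02 ± 0.12, adjusted p = 0.000634). MT-ND5 was at 5091 and 5275 RPKM in normoxia and at 2694 and 2469 RPKM in hypoxia (-1.01 ± 0.11, adjusted p = 0.000426). The calls of MT-ND5 and MT-ND6 sit at the fold limit: without Flag-OC2 hypoxia replicate 2 their log2 fold changes were -0.94 and -0.93, without Flag-OC2 normoxia replicate 2 that of MT-ND5 was -0.98, and without Flag-OC2 normoxia replicate 1 that of MT-ND6 was -0.96. The median of the members was -1.65 and that of all genes 0.09, and all 4 hypoxic LNCaP libraries lay below all 4 normoxic ones for 7 of 7 members, as for 12.3% of all genes with full values. By complex, the log2 fold change was -1.65 (complex I median, from -2.14 to -1.01), -1.94 for complex III and -1.27 for complex IV.

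**Figure D1:**
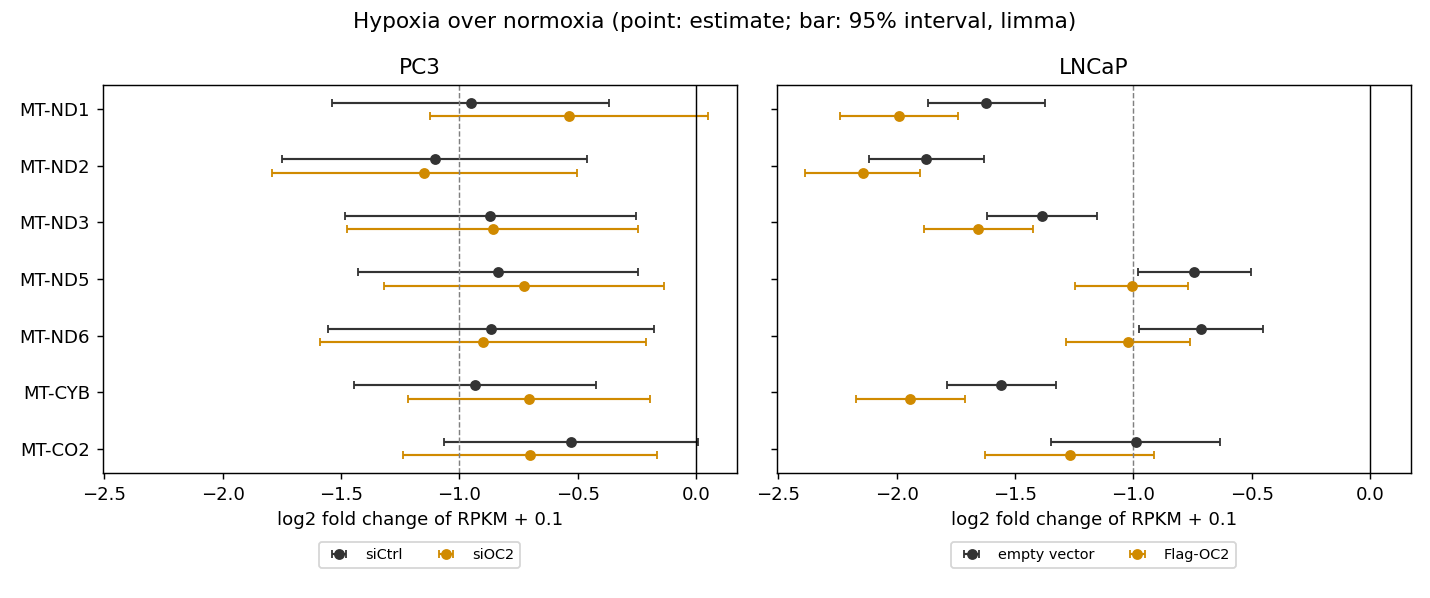
Log2 fold change of each member in hypoxia over normoxia (points) with 95% intervals from limma (bars), in PC3 (left; siCtrl and siOC2) and LNCaP (right; empty vector and Flag-OC2), with a dashed line at a fold of 2 lower. All points lie below 0, and in LNCaP MT-ND1, MT-ND2, MT-ND3 and MT-CYB lie at -1.39 or lower while MT-ND5, MT-ND6 and MT-CO2 lie at -1.27 or higher.

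In PC3 cells, all 7 members were lower in hypoxia in both siRNA arms, but the spread between libraries was wider and few passed the limits. In siCtrl cells 1 of the 7 was called, MT-ND2, against 1.65% of all genes called lower. At an unadjusted P under 0.05 there were 6 of 7, all but MT-CO2 (3.35% of all genes), and at an adjusted p under 0.05 there were 0 of 7 (0% of all genes in that direction). The median log2 fold change was -0.87, and that of all genes tested -0.07. MT-ND2 was at 2855 and 4078 RPKM in normoxia and at 1805 and 1398 RPKM in hypoxia (-1.10 ± 0.28, limma adjusted p = 0.274). MT-ND1 was at 2061 and 2958 RPKM in normoxia and at 1422 and 1145 RPKM in hypoxia (-0.95 ± 0.26, limma adjusted p = 0.327). In both genes the normoxic libraries differed from each other by more than the lower of them differed from the higher hypoxic library.

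MT-CYB was at 1839 and 2472 RPKM in normoxic and at 1237 and 1009 RPKM in hypoxic siCtrl libraries (-0.93 ± 0.22, limma adjusted p = 0.232). MT-ND3, at 2872 and 3745 RPKM, then 1909 and 1689 RPKM, had a log2 fold change of -0.87 ± 0.27. MT-ND6, at 2130 and 3227 RPKM, then 1699 and 1216 RPKM, had the same log2 fold change, -0.87 ± 0.30. These genes kept the 4 libraries apart, as did the next pair. MT-ND5 was at 1618 and 2259 RPKM in normoxia and at 1238 and 927 RPKM in hypoxia (-0.84 ± 0.26). MT-CO2, at 5381 and 7244 RPKM, then 4296 and 4375 RPKM, differed least (-0.53 ± 0.23, limma adjusted p = 0.686).

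The count in siCtrl cells turned on single libraries. The shallow siCtrl normoxia replicate 1 was lower than replicate 2 for 7 of 7 members, with replicate 2 over replicate 1 between 1.30 for MT-ND3 and 1.51 for MT-ND6. Without it, 6 members were called, and without siCtrl normoxia replicate 2, 0 were. Without siCtrl hypoxia replicate 1, 5 were called, and without siCtrl hypoxia replicate 2, which is also shallow, 0 were. Over all alternatives the adjusted p of MT-ND2 ranged from 0.0071 to 1, and its log2 fold change from -1.36 to -0.85. The part of depth in these differences was not tested.

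In siOC2 cells 1 of the 7 members was again called, MT-ND2 (2.39% of all genes were called lower), with 6 of 7 at an unadjusted P under 0.05 (4.96% of all genes), all but MT-ND1, and 0 of 7 at an adjusted p under 0.05 (0% of all genes in that direction). MT-ND2 was at 3832 (siRNA1) and 3031 (siRNA2) RPKM in normoxia and at 1252 and 1892 RPKM in hypoxia (-1.15 ± 0.28, limma adjusted p = 0.617). MT-ND1, at 2579 and 2852 RPKM in normoxia and at 1578 and 2213 RPKM in hypoxia, differed least in this arm (-0.54 ± 0.26). Its siRNA2 hypoxic library was above siCtrl normoxia replicate 1, which is why MT-ND1 alone of the members had overlapping oxygen groups in PC3. For the other 6 of 7, all 4 hypoxic PC3 libraries lay below all 4 normoxic ones, as for 6.6% of all genes with full values.

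MT-ND3 was at 4904 (siRNA1) and 2953 (siRNA2) RPKM in normoxic and at 1953 and 2253 RPKM in hypoxic siOC2 libraries (-0.86 ± 0.27). Its ratio of siRNA2 to siRNA1 in normoxia, 0.602, was the lowest ratio of replicate 2 to replicate 1 of any member in any group. MT-ND6 was at 3297 and 2638 RPKM and then at 1283 and 1945 RPKM (-0.90 ± 0.30). MT-ND5, at 2130 and 1868 RPKM, then 1042 and 1396 RPKM, had a log2 fold change of -0.73 ± 0.26. For both complex I genes siRNA1 was higher in normoxia and lower in hypoxia than siRNA2. MT-CYB was at 2046 and 1763 RPKM and then at 1231 and 1104 RPKM (-0.70 ± 0.22), and MT-CO2 was at 7503 and 5389 RPKM and then at 3505 and 4364 RPKM (-0.70 ± 0.23).

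The median over the members in siOC2 cells was -0.73, and that of all genes tested -0.22. With libraries scaled by the median ratio over genes the median of all genes was near 0 in both arms and MT-ND2 was at -0.92 in siOC2 cells, so 0 members were called there. Without siOC2 hypoxia siRNA1 (shallow) or siOC2 normoxia siRNA1, 0 were called, without siOC2 hypoxia siRNA2, 2, and without siOC2 normoxia siRNA2, 3. In siCtrl and siOC2 cells the log2 fold change was -0.87 and -0.86 for complex I (medians), -0.93 and -0.70 for complex III, and -0.53 and -0.70 for complex IV.

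The members did not keep their proportions in hypoxia. Values of 2 members within a library are free of the scaling of that library, and they are given per library, without a test, because the pattern was seen in these same data. In LNCaP, MT-ND5 was at 0.414 to 0.519 of MT-ND2 in the 4 normoxic libraries and at 0.960 to 1.041 of it in the 4 hypoxic libraries. In PC3 the same ratio was 0.554 to 0.616 in normoxia and 0.663 to 0.832 in hypoxia. The oxygen groups did not overlap in either line, and the shift was larger in LNCaP.

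In LNCaP, the 3 members with a complete encoded stop codon (MT-ND5, MT-ND6 and MT-CO2) were those with the smaller falls and the 4 with an incomplete one were those with the larger falls. The mean log2 RPKM of the 3 minus that of the 4 was 0.31 to 0.40 in normoxic and 1.11 to 1.23 in hypoxic libraries. In PC3 it was 0.16 to 0.25 in normoxic and 0.18 to 0.41 in hypoxic libraries, and the groups overlapped, siOC2 hypoxia siRNA1 at 0.18 being below 3 of the normoxic libraries. The division by stop codon was chosen after the values were seen, and these genes also differ in length, neighbouring gene and nuclear copies, whose parts were not tested.

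MT-ND6, from the other strand, stood 0.38 to 0.62 above the mean log2 RPKM of MT-ND1, MT-ND2, MT-ND5, MT-CYB and MT-CO2 in normoxic LNCaP libraries and 1.05 to 1.22 above it in hypoxic ones. In PC3 this difference was between -0.27 and 0.05 over the 8 libraries, with normoxia and hypoxia overlapping. MT-ND3 stayed close to that mean in LNCaP in all libraries, between -0.0024 and 0.13.

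**Figure D2:**
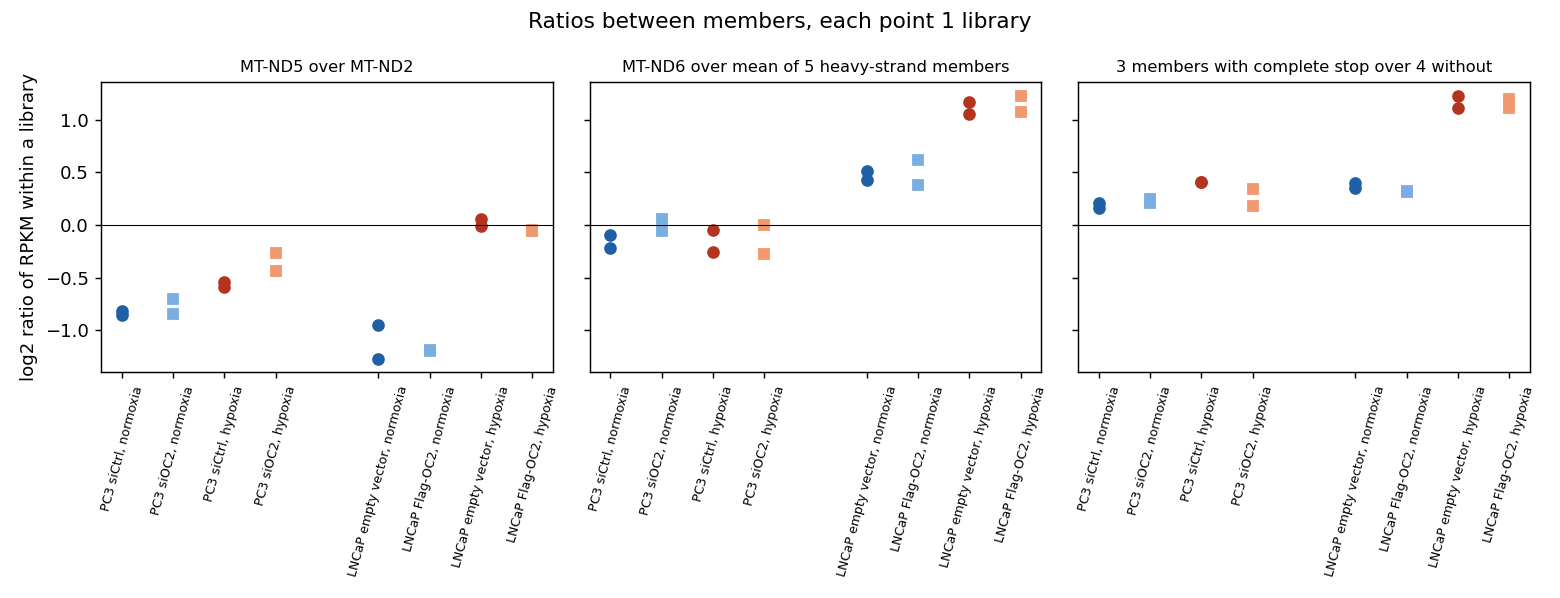
Log2 ratios between members within each library (1 point a library, 2 a group), for MT-ND5 over MT-ND2 (left), MT-ND6 over the mean of MT-ND1, MT-ND2, MT-ND5, MT-CYB and MT-CO2 (middle), and the mean of the 3 members with a complete stop codon over that of the other 4 (right). In LNCaP the hypoxic libraries lie above the normoxic ones in all 3 panels, and in PC3 only in the left panel.

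The order of the members followed from these shifts. In normoxic empty vector LNCaP cells it was MT-CO2 (28158 ± 5112 RPKM, SD, n = 2), MT-ND6 (13961 ± 365), MT-ND3 (10598 ± 423), MT-ND2 (10500 ± 875), MT-ND1 (9387 ± 1145), MT-CYB (7948 ± 232) and MT-ND5 (4866 ± 365). The libraries of MT-ND2 overlapped those of MT-ND3 and of MT-ND1, and the other neighbours did not overlap. In hypoxic empty vector cells MT-CO2 (14067 ± 416), MT-ND6 (8517 ± 627) and MT-ND3 (4052 ± 80) remained on top, and MT-ND1 (3041 ± 40), MT-ND5 (2906 ± 170), MT-ND2 (2858 ± 68) and MT-CYB (2700 ± 73) came close together, with MT-ND5 overlapping both MT-ND1 and MT-ND2. MT-ND5 thus no longer held the lowest place.

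In normoxic siCtrl PC3 cells MT-CO2 was highest (6313 ± 1318 RPKM, SD, n = 2), followed by MT-ND2 (3467 ± 865), MT-ND3 (3308 ± 617), MT-ND6 (2679 ± 775), MT-ND1 (2510 ± 634), MT-CYB (2155 ± 448) and MT-ND5 (1939 ± 453). Apart from MT-CO2, each neighbour overlapped the next. In hypoxic siCtrl cells MT-CO2 (4336 ± 56) was again apart from the rest, which ran from MT-ND3 (1799 ± 156) to MT-ND5 (1082 ± 220).

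No member differed by the amount of ONECUT2 beyond the limits. In PC3 the effect was taken as siCtrl over siOC2. In normoxia 0 of 7 were called by limma, against 5.25% of all genes in either direction, and 0 of 7 had an unadjusted P under 0.05, against 9.27%. The log2 fold changes lay between -0.21 (MT-ND3) and 0.17 (MT-CYB), with 95% intervals that reached from -0.86 (MT-ND6) to 0.68 (MT-CYB), so that a change of 1.5-fold in either direction is inside those of MT-ND2, for example. The median of all genes in this contrast was -0.13, and with median ratio scaling 0.01. In hypoxia again 0 of 7 were called (7.55% of all genes) and 0 of 7 had an unadjusted P under 0.05 (12.2%). MT-ND1 came nearest, at 1422 and 1145 RPKM in siCtrl and 1578 and 2213 RPKM in siOC2 libraries (-0.55 ± 0.26, limma adjusted p = 0.436). The other 6 lay between -0.22 (MT-ND3) and 0.15 (MT-CO2).

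In LNCaP the effect was taken as Flag-OC2 over empty vector, and the intervals were narrower. In normoxia 0 of 7 were called by limma (3.3% of all genes) and 0 of 7 had an unadjusted P under 0.05 (24.4%). All 7 were slightly higher with Flag-OC2, as 38.6% of all genes were, between 0.08 for MT-CO2 (95% interval -0.28 to 0.43) and 0.18 for MT-ND3 (-0.05 to 0.41). Without empty vector normoxia replicate 1 the value of MT-CO2 was -0.11, so its direction rests on that library. In hypoxia 0 of 7 were called (4.47% of all genes) and 0 of 7 had an unadjusted P under 0.05 (28.5%). Here all 7 were slightly lower with Flag-OC2, as 51.8% of all genes were, between -0.22 for MT-ND1 (95% interval -0.46 to 0.03) and -0.09 for MT-ND3 (-0.32 to 0.14). Within each oxygen level the 95% interval of the difference between vectors held 0 for each of the 7, and the signs of the 7 genes are not independent of each other.

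The fall in hypoxia was nominally deeper with Flag-OC2. The interaction, the Flag-OC2 effect in hypoxia minus that in normoxia, was negative for 7 of 7 members in LNCaP (42.5% of all genes were negative), between -0.38 (MT-CYB) and -0.26 (MT-ND5). None of the 7 was called by limma (0 of 7, against 3.71% of all genes in either direction), and 2 of 7, MT-ND1 and MT-CYB, had an unadjusted P under 0.05 with a negative sign, against 6.65% of all genes in that direction and 17.1% in either. MT-CYB was at -0.38 ± 0.14 (limma adjusted p = 0.235) and MT-ND1 at -0.37 ± 0.15 (limma adjusted p = 0.272), and neither passed the adjustment. In PC3 the interaction lay between -0.42 (MT-ND1) and 0.18 (MT-CO2), with 4 of 7 members negative beside a median of all genes of 0.17, 0 of 7 called by limma (0.942% of all genes) and 0 of 7 at an unadjusted P under 0.05 (1.03%).

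**Figure D3:**
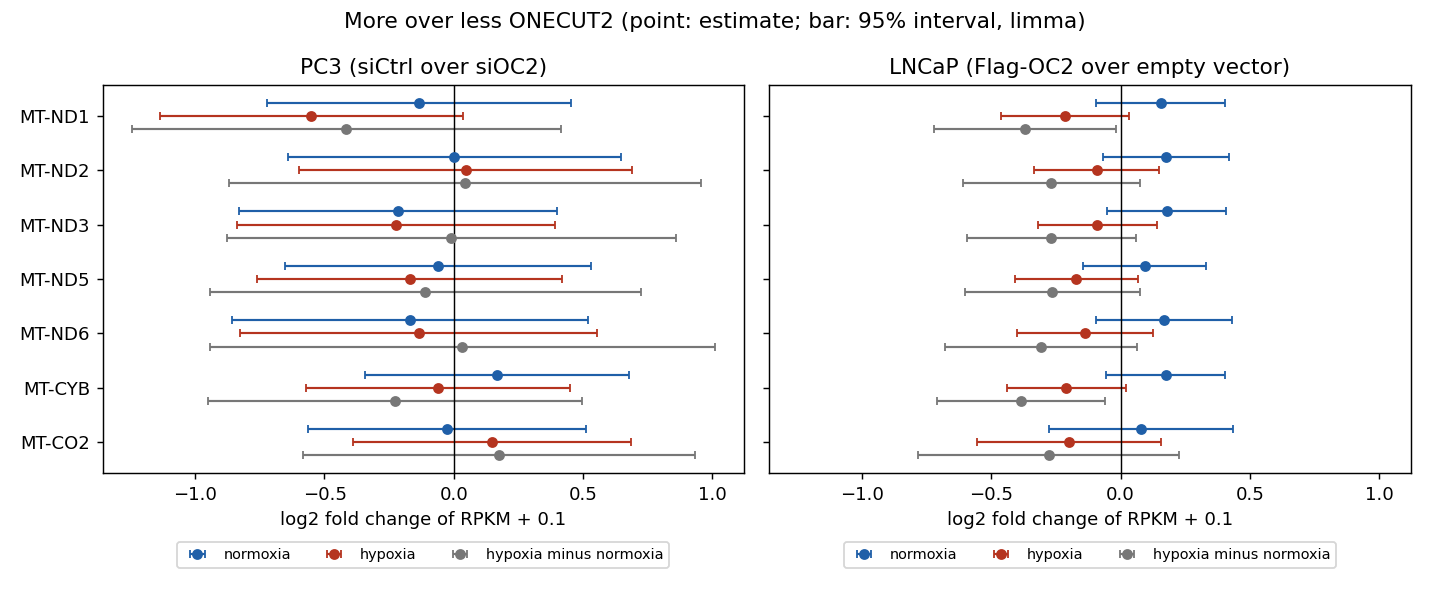
Log2 fold change of each member between the libraries with more and with less ONECUT2 (points) with 95% intervals from limma (bars), in PC3 (left; siCtrl over siOC2) and LNCaP (right; Flag-OC2 over empty vector), in normoxia, in hypoxia and as the difference between both. In LNCaP all 7 normoxic points lie between 0.08 and 0.18 and all 7 hypoxic points between -0.22 and -0.09, and the interval of the difference excludes 0 for MT-ND1 and MT-CYB only, without adjustment.

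The 6 other mitochondrial mRNAs could be tested against oxygen in PC3 only, apart from MT-CO1. In siCtrl cells 2 of the 6 were called lower, both ATP synthase subunits of complex V: MT-ATP6 at -1.18 ± 0.27 (limma adjusted p = 0.186) and MT-ATP8 at -1.04 ± 0.36 (limma adjusted p = 0.528). The same 2 were called in siOC2 cells, at -1.13 and -1.19. Of all genes, 1.65% were called lower in siCtrl and 2.39% in siOC2 cells. All 6 were lower in both arms, with medians of -0.61 and -0.71 beside -0.87 and -0.73 for the 7 members, and MT-CO1 was nearest to 0 (-0.13 and -0.20). In LNCaP Flag-OC2 cells MT-CO1 was at 17679 RPKM in the 1 normoxic library with a value and at 9412 and 8853 RPKM in hypoxia (-0.95 ± 0.14, limma adjusted p = 0.00418, in a fit that leaves out the library listed at 0). This is a complex IV gene beside MT-CO2, which was at -1.27 there. Between the vectors the 6 genes could be compared in hypoxic LNCaP cells, where all 6 were lower with Flag-OC2 (median -0.29, from -0.43 for MT-ATP8 to -0.18 for MT-ND4; the 7 members had a median of -0.17). None of the 6 was called or had an adjusted p under 0.05 by limma, and 4 of 6 (MT-CO1, MT-CO3, MT-ATP6 and MT-ATP8) had an unadjusted P under 0.05, beside 0 of 7 members and 28.5% of all genes in either direction. Whether the 6 differ from the 7 was not tested.

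Of the nuclear genes for mitochondrial transcription and replication, none of the 11 tested was called in LNCaP in hypoxia in either vector arm, by a rule that 2.35% and 1.38% of all genes met on the lower side. At an adjusted p under 0.05 by limma, 5 of the 11 passed in empty vector cells (POLG, POLG2, SSBP1, TFB2M and TOP1MT; 4 lower and 1 higher) and 0 in Flag-OC2 cells, where 14.5% and 8.76% of all genes were lower by that rule. TFAM, which packages and starts transcription of the mitochondrial genome, was at -0.22 ± 0.13 and -0.07 ± 0.13, and POLRMT, the mitochondrial RNA polymerase, at -0.18 ± 0.15 and -0.25 ± 0.15. TFB2M, the transcription factor that opens the promoter, fell in empty vector cells (-0.81 ± 0.18, limma adjusted p = 0.00875) and was at -0.29 ± 0.18 in Flag-OC2 cells (adjusted p = 0.251). In PC3 siCtrl cells 1 of 11 was called lower, C10orf2 (the helicase Twinkle), at -1.84 ± 0.58 (limma adjusted p = 0.439), and in siOC2 cells none was. POLRMT was at -0.80 ± 0.39 and -0.67 ± 0.39 in the PC3 arms, not called.

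Of 22 genes for processing and decay of mitochondrial RNA, none was called in LNCaP, nor any of the 21 tested in PC3. At an adjusted p under 0.05 by limma, 4 of the 22 were lower in empty vector LNCaP cells (HSD17B10, LRPPRC, PTCD2 and SLIRP) and 3 in Flag-OC2 cells (HSD17B10, KIAA0391 and LRPPRC). Of all genes, 14.5% and 8.76% were lower by that rule, so these counts do not set the list apart. LRPPRC and SLIRP form a complex that binds and stabilises mitochondrial mRNAs. LRPPRC fell in both LNCaP arms at an adjusted p under 0.05 (-0.44 ± 0.11, limma adjusted p = 0.0149, and -0.40 ± 0.11, limma adjusted p = 0.0247). SLIRP fell in empty vector cells (-0.69 ± 0.12, limma adjusted p = 0.00355) and was at -0.05 ± 0.12 in Flag-OC2 cells, where the members were between -2.14 and -1.01. In PC3 both were within 0.23 of 0 in both arms. The part of LRPPRC and SLIRP in the levels of the members was not tested.

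Among regulators, MXI1, a MYC antagonist and known hypoxia target, was called higher in hypoxia in all 4 arms, at 1.44 and 1.75 in LNCaP and 2.14 and 1.02 in PC3 (limma adjusted p from 0.000107 to 0.718). Genes called higher made up 5.56% and 5.46% of all genes in the LNCaP arms and 2.24% and 1.1% in the PC3 arms. PPARGC1A, a coactivator of mitochondrial biogenesis, was low, at 1.65 and 1.17 RPKM in normoxic and 0.334 and 0.306 RPKM in hypoxic empty vector LNCaP cells, and fell (-1.83 ± 0.37, limma adjusted p = 0.00675). In Flag-OC2 cells it was at 0.486 and 1.13 RPKM in normoxia and at 1.09 and 0.888 RPKM in hypoxia, and this difference was not called. With Flag-OC2 over empty vector it was called higher in hypoxia (1.37 ± 0.37, limma adjusted p = 0.0468) and not called in normoxia (-0.82 ± 0.37). The interaction was called as well (2.19 ± 0.53, limma adjusted p = 0.108). Of all genes, 4.47% and 3.71% were called in either direction in the hypoxic comparison and the interaction. No value of this gene in LNCaP was above 1.65 RPKM.

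The nuclear-encoded partners of the members had medians nearer to 0 than the members of the same complex in all 4 hypoxia contrasts, a difference that was not tested. In empty vector LNCaP cells 0 of 7 nuclear core subunits of complex I were called in hypoxia (median -0.19, against -1.39 for the 5 mitochondrial members of that complex) and 0 of 9 subunits of complex III (median -0.35, against -1.56 for MT-CYB). Of all genes, 2.35% were called lower and 5.56% higher in this arm. At an adjusted p under 0.05 by limma, which 14.5% of all genes met on the lower side, 3 of those 9 were lower (UQCR10, UQCRC2 and UQCRH) and none of the 7 of complex I. Of 13 subunits of complex IV, 2 were lower at an adjusted p under 0.05 (COX5A and COX7A2) and 1 was called, which rose by more than any member fell: NDUFA4L2, a hypoxia-induced paralog of the complex IV subunit NDUFA4, went from 14.7 and 30.01 RPKM to 291 and 287 RPKM (3.77 ± 0.32, limma adjusted p = 9.93e-05). NDUFA4 itself was at -0.41 ± 0.20 and not called, and the median of the 13 was -0.28, against -0.99 for MT-CO2. In Flag-OC2 cells NDUFA4L2 was again the 1 gene called (5.63 ± 0.32, limma adjusted p = 1.61e-05), and the medians of the 3 complexes were -0.20, -0.20 and -0.05, and in PC3 siCtrl cells -0.23, -0.03 and 0.04, with 1 gene called lower, NDUFS8 of complex I (-1.03 ± 0.25, limma adjusted p = 0.232). In PC3 siOC2 cells they were -0.42, -0.29 and -0.15 beside -0.22 for all genes, with none called, against -0.86, -0.70 and -0.70 for the members of complexes I, III and IV. NDUFA4L2 did not rise in PC3 (-0.41 ± 0.84 in siCtrl and -0.90 ± 0.84 in siOC2 cells), where it was at most 3.46 RPKM. With more ONECUT2 it was called lower in normoxic LNCaP (-1.82, limma adjusted p = 0.0154), and in hypoxic LNCaP it was at 0.04, not called. In PC3 it was called lower in siCtrl than in siOC2 cells (-3.14 in normoxia and -2.64 in hypoxia, limma adjusted p = 0.279 and 0.25). There it reached 1 RPKM only in siOC2 libraries, and so passed the limit for testing through that arm alone. The PC3 calls are therefore no support for a difference.

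The genes whose log2(RPKM + 0.1) over the 8 LNCaP libraries was most like the mean of the 7 members were SMCO4 (Pearson r = 0.992), DHRS7 (0.987), YWHAE (0.987), MTRNR2L12 (0.984) and GTF2E2 (0.983). In PC3 they were DGCR14 (0.983), AKAP8 (0.981), RGPD5 (0.978), RNF31 (0.973) and DDX56 (0.971). Spearman's rho over the same libraries was 0.762 to 0.952 for the LNCaP genes and 0.952 to 0.976 for the PC3 genes. All points of a line share its 4 groups and its libraries, and 407 of 12244 genes in LNCaP and 173 of 12190 in PC3 had r over 0.9, so these are descriptions of the level pattern.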

How the data were processed

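RNA-Seq of 16 libraries was used. Chromatin samples, 12 in number, are not analysed here. The authors made TruSeq Stranded mRNA libraries, used STAR 2.4.2a for alignment (hg19) and obtained the deposited gene-level RPKM from Cufflinks 2.1.1, given GENCODE gene models on GRCh37. The strand setting and the mitochondrial reference sequence are not given in the sources used here. Per cell line, genes reaching 1 RPKM in 2 or more of 8 libraries (12214 in PC3, 12284 in LNCaP, all 7 members included) were fitted on log2(RPKM + 0.1) with limma 3.58.1 in R 4.3.3, as 4 groups without a block, the prior variance following mean expression. An exact 0 where the median of the other libraries was at least 10 RPKM was taken as missing (68 values in LNCaP, 18 in PC3, none of a member). Calls needed more than a 2-fold difference together with a 2-sided unadjusted P under 0.05. The Benjamini-Hochberg adjustment ran over every gene tested. Intervals are 95%.

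Read counts were not used. Relative depth was estimated from the steps in low RPKM values. The share of reads of a member is RPKM times the gene length of the annotation, which may differ from the length the authors used. Gene models and sequences come from GRCh37 with GENCODE and nuclear copies from blastn 2.17.0. Members, lists and alternatives were chosen with earlier results of these data known. Named are all members, the other mitochondrial mRNAs, a fixed set of nuclear genes with any list gene called, ONECUT2, CA9 and the 5 genes per line most correlated with the members. In siOC2 libraries the replicate number is that of the siRNA. Same-numbered siOC2 libraries deviated together across oxygen levels (r = 0.673 over 11505 genes), and other pairs of groups had r from -0.12 to 0.259. The fit was tested on simulated data.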

Additional observations from a re-analysis of the deposited data

Results flagged for a closer look

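The hypoxia effect of MT-ND1 and of MT-CYB differed between the LNCaP vector arms in the test of that difference before adjustment, with an interaction on the log2 scale of -0.37 for MT-ND1 (limma adjusted p = 0.272) and of -0.38 for MT-CYB (limma adjusted p = 0.235). For both genes each normoxic Flag-OC2 library was above each normoxic empty vector library and each hypoxic Flag-OC2 library below each hypoxic empty vector library. The same held for MT-ND2 and MT-ND3, so this order is not particular to the flagged genes. It comes from the same values as the interaction, and the share of all genes with it was not computed. Over the alternatives the interaction ranged from -0.49 to -0.25 for MT-ND1 and from -0.45 to -0.32 for MT-CYB, and the adjusted p from 0.141 to 0.616 and from 0.179 to 0.585. The other 5 members had interactions between -0.31 and -0.26 that did not reach an unadjusted P under 0.05.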

How the results depend on the processing

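The count of members called lower in hypoxia in PC3 depended on the limits. In siCtrl cells it was 1, and it was 0 at an adjusted p, 6 at an unadjusted P with any fold, 0 without a limit on low values, and 0 to 6 when 1 library was left out. In siOC2 cells it was 1, and it was 0, 6 and 0 under the same alternatives, 0 with median ratio scaling, and 0 to 3 when 1 library was left out. In empty vector LNCaP cells the 4 became 7 at an adjusted or an unadjusted P with any fold. The LNCaP interaction went from 0 to 2 at an unadjusted P. The other 180 values of the counts stayed within 1.5 times, and no log2 fold change of a called member changed sign. Of the values of single called members, 246 stayed past the limits and 14 did not, among them MT-CO2 in Flag-OC2 LNCaP cells without a limit on low values (log2 fold change -1.27). The cause was not tested. With the replicate number as a block the counts were 1, 1, 4 and 7 in the hypoxia contrasts and 0 in the 6 others, as without it. A block in the siOC2 libraries only, and one with the empty vector normoxia numbers swapped, both chosen after seeing the data, gave the same counts. With groups of 2, a group left with 1 library was assumed to vary like the others. The 95% intervals of the members were wider in PC3 than in LNCaP, and the part of depth in this was not tested.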

Other observations

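The MTRNR2L genes, nuclear genes that resemble the gene of the mitochondrial 16S rRNA, had enough signal for a test for 2 of 13 genes in LNCaP and 11 of 13 in PC3. In LNCaP the 2 with enough signal, MTRNR2L12 and MTRNR2L8, fell in hypoxia. MTRNR2L12 was at 59.0 and 65.9 RPKM in normoxic and 16.7 and 17.2 RPKM in hypoxic empty vector cells (-1.87 ± 0.15, limma adjusted p = 8.56e-05). In PC3 8 of 11 were called higher in hypoxic siCtrl cells (2.24% of all genes) and 7 of 11 in siOC2 cells (1.1%). The medians were 2.62 and 2.53, and 2 of the 11 were lower in siOC2 cells. MTRNR2L4, MTRNR2L5, MTRNR2L7, MTRNR2L11 and MTRNR2L13 passed the limit for testing only through hypoxic libraries. Their calls could thus only be upward. The medians are the values of MTRNR2L7 in siCtrl and MTRNR2L4 in siOC2 cells. Neither these calls nor the medians are support for a rise of the group. The 2 genes that fell in LNCaP were not called in PC3, where MTRNR2L12 was at 0.12 and 0.01 in siCtrl and siOC2 cells and MTRNR2L8 at 0.13 and -0.24 (log2 fold changes). Those called higher in PC3 were too low for a test in LNCaP, at most 0.212 RPKM. Among them MTRNR2L11 was lower in hypoxia there, at 0.212 and 0.152 RPKM and then 0.046 and 0.047 RPKM in empty vector cells. Whether the same gene goes opposite ways in the 2 lines was not tested. MTRNR2L11 was at 0.345 and 0.756 RPKM in normoxic and 13.4 and 10.3 RPKM in hypoxic siCtrl cells (4.26 ± 0.40, limma adjusted p = 0.00478), and MTRNR2L3 at 2.18 and 3.32 RPKM and then 36.5 and 29.4 RPKM (3.56 ± 0.32, limma adjusted p = 0.00442). The levels of the abundant ones differed widely between the tables. MTRNR2L8 was between 2862 and 4320 RPKM in PC3 and between 6.69 and 26.5 RPKM in LNCaP, and MTRNR2L12 was between 21671 and 27052 RPKM in 5 PC3 libraries and listed at 0 in the other 3. These genes are near-identical copies of each other and of a mitochondrial gene that has no value in either table, so the division of reads among them is uncertain, and its part in these values was not tested.

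COX4I2, the complex IV subunit isoform known from lung and from cells in low oxygen, was listed at 0 in all 4 empty vector LNCaP libraries and at 2.31 and 0.434 RPKM in normoxic and 2.23 and 0.783 RPKM in hypoxic Flag-OC2 libraries. COX4I2 was called higher with Flag-OC2 in both oxygen levels (limma adjusted p = 0.0277 and 0.0119). It reached 1 RPKM only in replicate 1 of each Flag-OC2 group, and so passed the limit for testing through that arm alone. With values of 0 in the other arm, the size of its fold rests on the added 0.1 RPKM. These calls are therefore no support for a difference. COX4I1, the common isoform, was between 254 and 357 RPKM in LNCaP and was not called.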
